A study of Mus musculus with 2 samples.

Results

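The 26S proteasome of mouse gastrocnemius, a mixed but mainly fast calf muscle, was described from its RNA. Members were all protein-coding genes whose symbol begins with Psma, Psmb, Psmc, Psmd, Psme, Psmf or Psmg followed by a digit, which gave 50 of 55536 gene identifiers. Of these, 49 encode subunits, activators, an inhibitor or assembly chaperones of the proteasome. The other, Psmc3ip, is a factor of meiotic recombination that shares only the start of its symbol. Total RNA was sequenced from 2 gastrocnemius samples of male B6CASTF1/J mice aged 2 months, an F1 cross of B6 and CAST, with 300 ng of RNA and ERCC spike-in RNA in each library. The labels call both libraries biological replicates of 1 group and give both the same donor entry but different tissue sample entries, so whether they come from separate animals is not clear from the labels. No treatment, genotype or time was compared. Differences below are therefore between replicate 1 and replicate 2, and their p-values cover the sampling of reads alone. A pair of values holds the value of replicate 1 and that of replicate 2.

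The proteasome degrades proteins tagged with ubiquitin. Its 20S core is a barrel of alpha and beta rings, with 3 of the beta subunits carrying the proteolytic sites. The 19S cap binds, unfolds and feeds the substrate, while other caps (the PA28 and PA200 activators) open the core without ATP. In muscle the system clears contractile and regulatory proteins, and its activity rises in atrophy. When cells meet interferon gamma, the inducible subunits Psmb8, Psmb9 and Psmb10 take the places of Psmb5, Psmb6 and Psmb7 and shift cleavage towards peptides that fit MHC class I. The factor Nfe2l1 drives proteasome genes through the antioxidant response element.

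Promoter sequences were compared because members can share these control elements. RefSeq (GRCm38.p6) gave 45 promoters for 42 of the 50 members, each from 250 bases before to 50 bases after a transcription start. Psma8, Psmb1, Psmb2, Psmb7, Psmc3, Psmd3, Psmd7 and Psmg2 had no entry. The antioxidant response element core was searched as TGACNNNGC and the interferon-stimulated response element core as GAAANNGAAA, both on either strand, and the CCAAT box as CCAAT. Capitals in the 5 promoters below mark matches to the first 2 motifs. Psmb5 and Psmb6 are the constitutive catalytic genes with an entry, Psme4 and Psmd4 had the largest read ratios towards replicate 1, and Psme1 was the member called higher in replicate 2.
Psmb5 promoter, chr14:54617946-54618245, minus strand: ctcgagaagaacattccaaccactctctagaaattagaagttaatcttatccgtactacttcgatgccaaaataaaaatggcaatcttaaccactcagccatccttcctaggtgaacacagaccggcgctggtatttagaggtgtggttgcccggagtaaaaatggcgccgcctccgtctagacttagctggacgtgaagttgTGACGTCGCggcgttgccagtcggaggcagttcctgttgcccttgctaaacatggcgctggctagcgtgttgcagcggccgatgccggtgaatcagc
Psmb6 promoter, chr11:70525107-70525406, plus strand: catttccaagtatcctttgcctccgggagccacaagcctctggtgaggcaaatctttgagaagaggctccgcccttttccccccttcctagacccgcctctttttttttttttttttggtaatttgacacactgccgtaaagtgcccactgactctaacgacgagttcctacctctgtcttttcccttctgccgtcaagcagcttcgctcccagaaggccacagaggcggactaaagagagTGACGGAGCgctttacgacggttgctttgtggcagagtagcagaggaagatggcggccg
Psme4 promoter, chr11:30771525-30771824, plus strand: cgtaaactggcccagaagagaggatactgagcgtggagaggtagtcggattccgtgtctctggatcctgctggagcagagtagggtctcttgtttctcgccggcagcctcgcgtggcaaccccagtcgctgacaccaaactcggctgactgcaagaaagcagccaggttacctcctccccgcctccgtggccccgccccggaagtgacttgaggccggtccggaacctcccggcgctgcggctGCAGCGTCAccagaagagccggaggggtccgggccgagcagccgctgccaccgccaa
Psme1 promoter, chr14:55578244-55578543, plus strand: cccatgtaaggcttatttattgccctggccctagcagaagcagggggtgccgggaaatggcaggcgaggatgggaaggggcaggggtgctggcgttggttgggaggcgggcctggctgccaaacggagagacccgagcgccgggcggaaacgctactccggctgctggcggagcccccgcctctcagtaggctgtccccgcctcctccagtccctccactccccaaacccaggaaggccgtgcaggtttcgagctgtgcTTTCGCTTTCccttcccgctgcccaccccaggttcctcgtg
Psmd4 promoter, chr3:95042565-95042864, minus strand: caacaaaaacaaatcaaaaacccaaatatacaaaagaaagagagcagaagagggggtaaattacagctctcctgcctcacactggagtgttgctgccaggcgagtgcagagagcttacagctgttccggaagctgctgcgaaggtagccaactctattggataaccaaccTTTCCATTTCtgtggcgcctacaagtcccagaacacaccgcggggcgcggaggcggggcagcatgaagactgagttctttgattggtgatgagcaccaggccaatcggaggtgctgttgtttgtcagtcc

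Matches to the antioxidant core began 47 bases before the start in Psmb5, 9 bases before it in Psmb6 and 7 bases before it in Psme4. The others began 31 bases before the start in Psmd9, 227 in Psmc6 and 247 in Psmd12. In all, 6 of 42 member genes (14.3%) held this motif, against 2481 of 16522 protein-coding genes with a promoter (15.0%). The interferon core stood in 5 of 42 member genes (11.9%), which were Psmb3, Psmd4, Psmd9, Psme1 and Psmg4, against 665 of 16522 (4.02%). In Psme1 it began 10 bases after the start, and Psmb8, Psmb9, Psmb10 and Psme2 had no match to it in this window. The windows of Psmb8, Psmb9 and Psme1 lay wholly inside the gene coordinates given further on. Those of Psmb11, Psmd5, Psmd9, Psmd13 and Psmf1 also lay wholly inside their genes, as did a further window each of Psma6 and Psmc2. CCAAT stood in 15 of 42 member genes (35.7%) and in 42.1% of the protein-coding genes. The antioxidant core was about as frequent in members as in protein-coding genes at large, and the interferon core was more frequent. These shares carry no test, and a match shows letters, not binding.

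Most proteasome subunit genes were well above the median expressed gene. Levels are TPM, a share of all transcripts scaled by transcript length, from the first of 2 kinds of deposited table. Members came to 2048 TPM in replicate 1, against 1876 TPM in replicate 2, a mean of 1962 ± 121 (SD, n = 2). They held 0.242% of all expected read counts in replicate 1 (exact 95% interval 0.240 to 0.243%) and 0.219% in replicate 2 (0.218 to 0.221%). Over nuclear protein-coding counts alone the shares lay closer, at 0.321% (0.319 to 0.323%) in replicate 1 and 0.311% (0.309 to 0.313%) in replicate 2. Those counts came to 32098785 in replicate 1 and 29814997 in replicate 2. Replicate 1 held 42724487 gene counts and replicate 2 held 42280057. At this depth 47 members passed a summed count of at least 20, and 44 were at or above 1 TPM in both libraries. Psma8 and Psmb11 had 0 reads in both libraries in this kind of table, which allows up to 3 reads per library. The second kind of table gave Psma8 0 and 0.077 TPM and Psmb11 0.088 and 0.031 TPM. Psme2b stayed below the minimum with 3.97 and 10.9 counts. Among nuclear protein-coding genes at 1 TPM or more, 10071 and 10035 in number, the median level was 7.28 and 7.22 TPM.

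**Figure D1:**
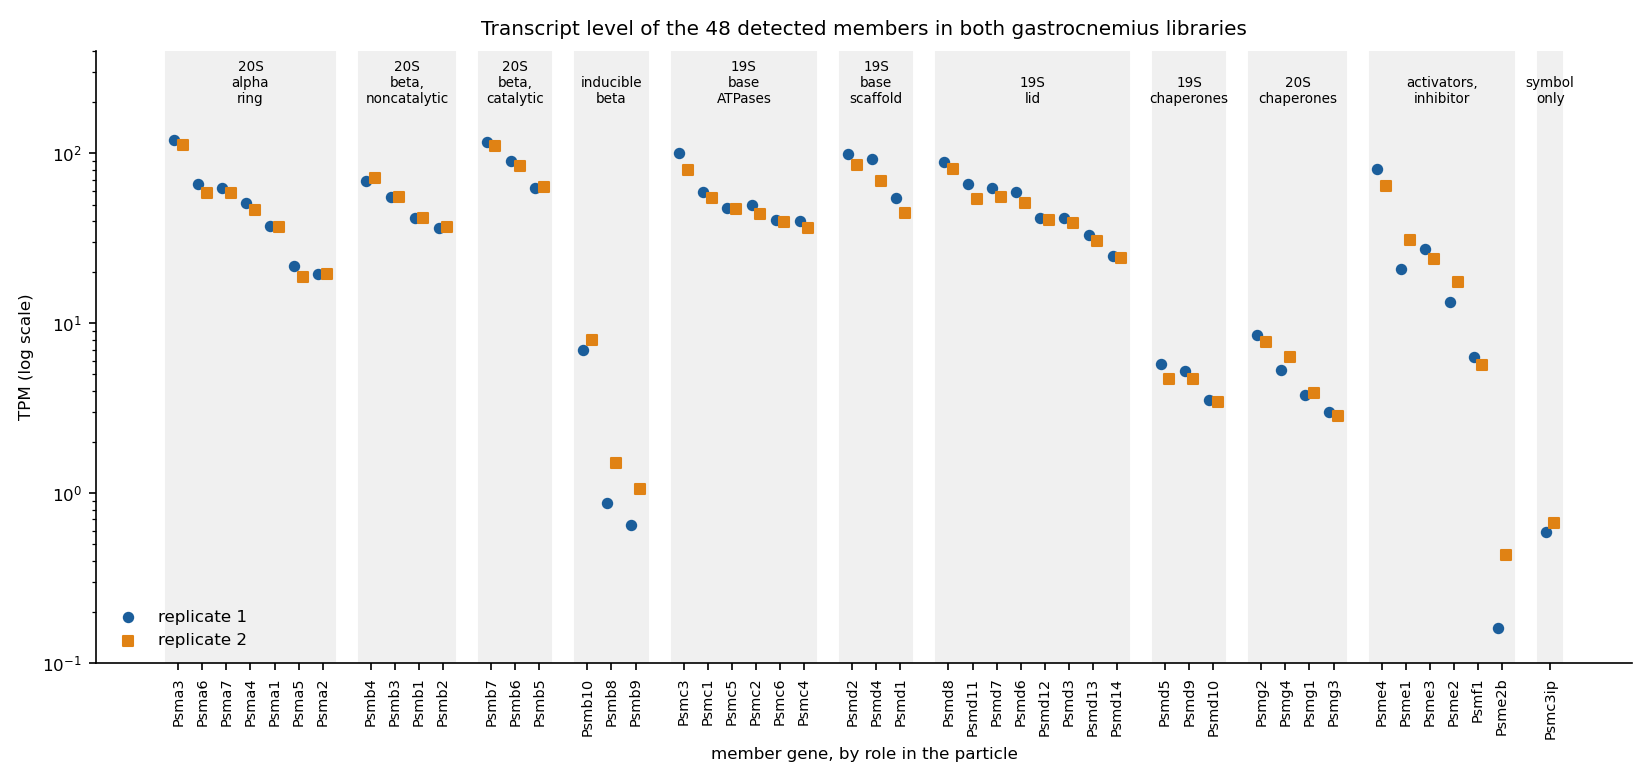
TPM of the 48 members with reads on a log axis, grouped by role, with a circle for replicate 1 and a square for replicate 2. Subunits of the 20S core and 19S cap lay between 18.7 and 120.1 TPM, and assembly chaperones and inducible beta subunits lay below 9 TPM.

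The 7 alpha genes form the outer rings of the core, which gate its entrance. They summed to 378.8 and 350.6 TPM. Psma3 was the highest of all members, at 120.1 and 112.3 TPM. Psma2 was the lowest constitutive core gene by its mean, at 19.6 and 19.6 TPM, and Psma5 stood next to it at 21.8 and 18.7 TPM. The order of these last 2 genes changed between the libraries. Psma6 (65.8 and 58.2 TPM) and Psma7 (62.7 and 58.7 TPM) lay in the upper middle, and Psma4 (51.2 and 46.4 TPM) and Psma1 (37.5 and 36.8 TPM) below them. The 4 noncatalytic beta genes Psmb1 to Psmb4 lay closer together. Psmb4 was their highest, at 69.0 and 71.2 TPM, and Psmb2 their lowest, at 36.6 and 36.7 TPM. Between them, Psmb3 had 55.4 and 55.1 TPM and Psmb1 41.8 and 41.7 TPM. Although each core holds the same number of every subunit, the RNA of the 14 constitutive core genes spanned 6.13-fold in replicate 1 and 6.02-fold in replicate 2. The coefficient of variation over these genes was 50.9% and 49.9%.

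The catalytic beta genes Psmb7 and Psmb6 were the highest of the beta ring, and Psmb5 stood below the noncatalytic Psmb4. Psmb7, which carries the trypsin-like site, had 116.9 and 110.1 TPM. Psmb6, with the caspase-like site, had 89.6 and 84.7 TPM. Psmb5, with the chymotrypsin-like site, had 63.0 and 63.5 TPM. Their inducible replacements were far lower in both libraries. Psmb10 had 7.0 and 7.99 TPM from 135 and 159 reads. Psmb8 had 0.88 and 1.5 TPM from 31 and 48 reads. Psmb9 had 0.65 and 1.06 TPM from 13 and 22 reads. Psmb5 exceeded Psmb8 71.6-fold in replicate 1 and 42.3-fold in replicate 2, Psmb6 exceeded Psmb9 137.9-fold and 79.9-fold, and Psmb7 exceeded Psmb10 16.7-fold and 13.8-fold. The inducible genes held 3.07% and 3.92% of the catalytic TPM, a mean of 3.50 ± 0.60% (SD, n = 2). Much of that was assigned to noncoding transcripts. Only 22.1% and 20.02% of Psmb10 TPM lay in its protein-coding transcript, with 56.5% and 38.7% in the short processed transcript Psmb10-203. The second kind of table gave the protein-coding transcript 20.4% and 24.4%, but Psmb10-203 only 0% and 25.9%. Over protein-coding transcripts alone, a count chosen after seeing the data, the inducible share was 0.89% and 1.41%. In the second kind of table it was 0.85% and 1.99%.

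**Figure D2:**
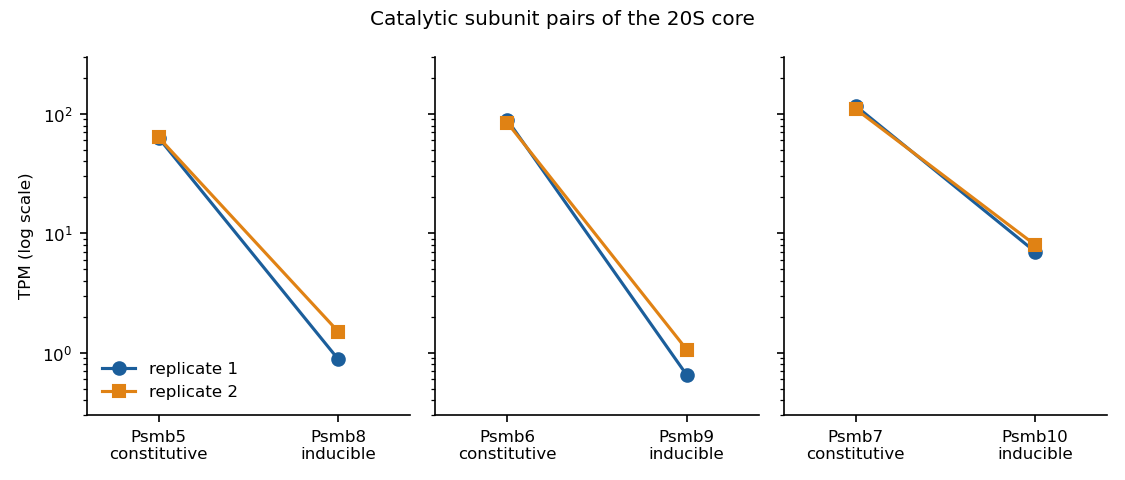
TPM of each constitutive catalytic gene and its inducible replacement on a log axis, with a line for each library. In both libraries the 3 constitutive genes lie at 63.0 TPM or above and the 3 inducible ones below 8 TPM.

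Psmb8 (chr17:34197721-34201454) and Psmb9 (chr17:34181987-34187764) are neighbours in the MHC region. The bulk tissue holds several cell types, so fewer cells of a type and less RNA per cell cannot be told apart. The 9 lymphocyte markers had 8 and 14 reads in all (0.22 and 0.28 TPM), with Cd3d at 0 in both. The 9 macrophage markers summed to 28.9 and 24.5 TPM and the 8 endothelial markers to 80.9 and 82.9 TPM. The part of these cells in the inducible signal was not tested. The tissue-restricted genes Psma8, of the germline proteasome, and Psmb11, of the thymic proteasome, stood at 0 reads in the first kind of table. Germ cell markers summed to 0.08 and 0.08 TPM, and the thymic factors Foxn1 and Prss16 were at 0. Ccl25, a chemokine gene on the same thymic list, had 276 and 176 reads (5.74 and 3.60 TPM) and was called higher in replicate 1.

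The 17 genes of the 19S base and lid were near the core in mean level. They averaged 59.0 and 51.5 TPM per gene, against 60.8 and 58.1 TPM for the 14 constitutive core genes, a ratio of 0.97 and 0.89. The 6 ATPases of the base unfold substrates. Psmc3 was their highest at 100.3 and 79.9 TPM, and Psmc4 their lowest at 40.0 and 36.6 TPM. The other 4 lay between 39.4 and 59.3 TPM. The large scaffold subunit Psmd2 had 99.2 and 85.6 TPM, its partner Psmd1 had 54.7 and 44.4 TPM, and the ubiquitin receptor Psmd4 had 92.9 and 69.0 TPM. In the lid, Psmd8 was highest at 89.3 and 81.0 TPM. Psmd14, the deubiquitinase that removes the ubiquitin chain, was the lowest at 25.03 and 24.1 TPM. The other 6 lid genes had 30.7 to 66.4 TPM. Over the 31 core and cap genes, the Spearman rank correlation of TPM between the libraries was 0.975, as a description across genes that share both libraries.

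Assembly chaperones, which guide construction and leave the finished particle, were rarer than the subunits. The cap chaperones Psmd5 (5.76 and 4.69 TPM), Psmd9 (5.22 and 4.71 TPM) and Psmd10 (3.52 and 3.42 TPM) lay close together. Among the core chaperones, Psmg2 was highest at 8.54 and 7.76 TPM and Psmg3 lowest at 3.01 and 2.86 TPM. Psmg4 had 5.34 and 6.31 TPM, and Psmg1 had 3.77 and 3.91 TPM. The mean core gene exceeded the mean core chaperone 11.8-fold and 11.2-fold, and the mean cap gene exceeded the mean cap chaperone 12.2-fold and 12.0-fold. The maturation factor Pomp, a core chaperone outside the symbol rule, stood nearer the subunits at 57.4 and 47.6 TPM.

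Of the activators, Psme4 stood out. It encodes PA200, a large single-chain cap known from the nucleus, from sperm chromatin and from acetylated proteins. It had 80.9 TPM from 16824 reads in replicate 1 and 64.1 TPM from 13350 reads in replicate 2, the most reads of any member, and was 1.33 and 1.10 times the mean constitutive core gene. It ranked 648 among nuclear protein-coding genes by mean TPM. The nuclear activator Psme3 was lower, at 27.4 and 23.8 TPM. Psme4 exceeded it 2.95-fold and 2.70-fold. In the first tables the interferon-responsive PA28 pair had lower TPM in replicate 1 than in replicate 2: Psme1 had 20.9 TPM in replicate 1 against 30.99 TPM in replicate 2, and Psme2 had 13.3 TPM against 17.6 TPM. In the second kind of table Psme1 kept that order, at 40.6 TPM in replicate 1 against 61.1 TPM in replicate 2, and Psme2 did not, at 19.1 TPM against 18.7 TPM. Both lie on chromosome 14, Psme1 at chr14:55578123-55581529 and Psme2 at chr14:55587441-55591113. Psmf1, the inhibitor PI31, had 6.37 and 5.67 TPM. Psme2b had 0.16 and 0.43 TPM. Its transcript is 99.4% identical to Psme2 over 794 bases, so reads between these genes could be split wrongly.

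Between the libraries, members differed little. The expected counts of each gene were compared by an exact two-sided binomial test with TMM-scaled library sizes and Benjamini-Hochberg adjustment over 14827 genes, and a call needed an adjusted p under 0.05 and a log2 ratio of at least 0.32 in size. No member was called higher in replicate 1, where 5.38% of all genes tested were, and 12 members passed the adjusted p without that minimum. Only 1 of 47, Psme1, was called higher in replicate 2, where 8.17% of all genes tested were. Psme1 had 653.0 counts in replicate 1 and 933.0 in replicate 2, a log2 ratio of replicate 1 over replicate 2 of -0.56 (95% counting interval -0.71 to -0.42, binomial test adjusted p = 3.28e-13). The replicate 1 library was thus lower in Psme1, and its neighbour Psme2, with 301.0 counts in replicate 1 and 334.1 in replicate 2, had a log2 ratio of -0.20 that did not pass. The median log2 ratio was 0.02 over the 47 members and 0.00 over all genes tested, and the quartiles were -0.06 and 0.10 for members against -0.18 and 0.17 for all genes. Over genes with at least 1000 summed counts, the SD of the log2 ratio was 0.15 for 34 members and 0.30 for all 5610 genes. The common biological coefficient of variation that edgeR estimated between both libraries was 0.15.

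**Figure D3:**
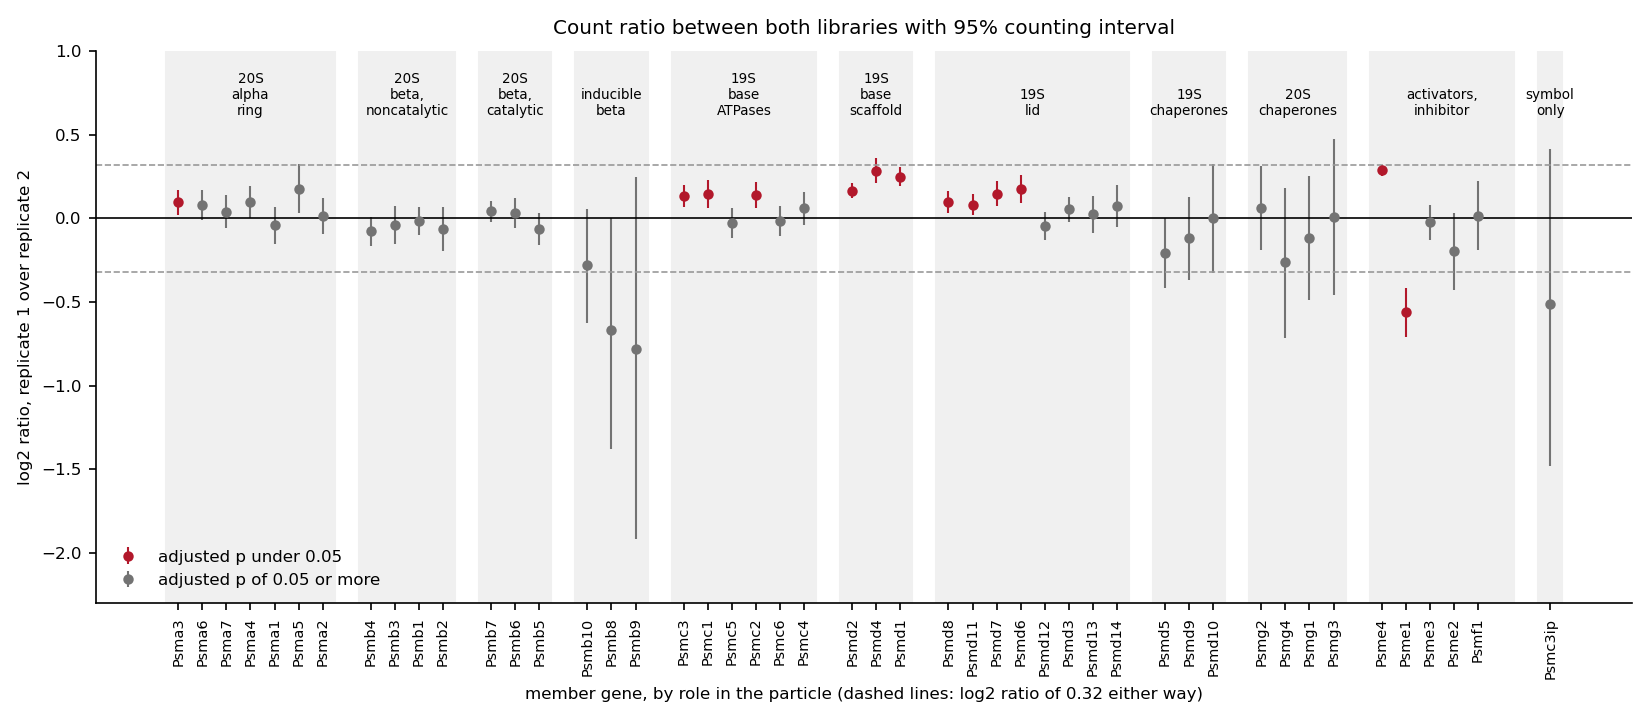
Log2 ratio of counts, replicate 1 over replicate 2, with 95% counting intervals for the 47 members tested, and dashed lines at a log2 ratio of 0.32 either way. Psme1 is the point in red below the lower dashed line, and the other 12 red points lie above 0 and within the dashed lines.

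With no minimum ratio, 12 of 47 members passed towards replicate 1, where 11.7% of all genes did, and 1 of 47 towards replicate 2, where 14.1% did. Members have deep counts, so genes with at least 1000 summed counts were also counted, a limit chosen after seeing the data. Among those, 20.7% of genes passed towards replicate 1 and 24% towards replicate 2, against 12 and 1 of 34 members. The 12 were Psme4, the core gene Psma3 and 10 of the 17 cap genes. The largest were Psme4 at a log2 ratio of 0.29 (0.25 to 0.32, adjusted p = 8.03e-65 by the binomial test), Psmd4 at 0.29 (0.21 to 0.36) and Psmd1 at 0.25 (0.19 to 0.31). Psmd2, Psmd6, Psmd7, Psmc1, Psmc2, Psmc3, Psmd8 and Psmd11 lay between 0.08 and 0.17, and Psma3 at 0.10. The count of 12 was made with TMM-scaled sizes alone, so how it depends on the scaling was not tested. The 14 constitutive core genes had a median log2 ratio of 0.02, with 8 above 0 and 6 below, and the 17 cap genes had a median of 0.10, with 14 above 0 and 3 below. Whether core and cap differ in this was not tested, and the cap genes held 54677 and 48551 counts against 27257 and 25984 for the core. TPM moved more than counts where the transcript mix changed: Psmd4-207, a processed transcript of 314 bases, had 11.7 TPM from 86.2 reads in replicate 1 and 4.03 TPM from 29.8 reads in replicate 2.

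Fibre type markers also differed between the libraries. In replicate 1 the 8 slow fibre markers came to 1249 TPM, against 3195 TPM in replicate 2, and all 8 were called higher in replicate 2. In replicate 1 the 10 fast fibre markers came to 108998 TPM, against 87645 TPM in replicate 2, with 4 of 10 called higher in replicate 1. The 8 fibro-adipogenic markers came to 269.2 TPM in replicate 1, against 231.9 TPM in replicate 2. Their log2 ratios had a median of 0.62, with 7 of 8 above 0, 5 called higher in replicate 1 and 1 called higher in replicate 2. Of all genes tested, 5.38% were called higher in replicate 1 and 8.17% higher in replicate 2. The part of fibre makeup and of these cells in the small cap and Psme4 ratios was not tested.

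The other interferon-linked members also had ratios below 0. The 3 inducible beta genes had log2 ratios of -0.28 for Psmb10, -0.67 for Psmb8 and -0.78 for Psmb9, and none passed the test. Of 16 genes of interferon gamma response and antigen processing, 13 were below 0 and 5 were called higher in replicate 2, against 8.17% of all genes. Among the 5 were the peptide transporter Tap1 (30 and 73 reads, log2 ratio -1.32), the class I activator Nlrc5 (10 and 34 reads, -1.76), the GTPase gene Gbp2 (94 and 153 reads, -0.75) and B2m, the class I light chain (621 and 763 reads, -0.34). The median of the 16 was -0.21. The 3 highest of the list were B2m, Tapbp, a class I loading factor (13.3 and 14.9 TPM), and the class I gene H2-D1 (11.9 and 12.8 TPM). Macrophage markers had a median log2 ratio of 0.06, with 1 of 9 called, Csf1r, higher in replicate 1. Lymphocyte markers were near 0 reads, and the 8 endothelial markers had a median log2 ratio of -0.26, with 6 of 8 below 0, 3 called higher in replicate 2 and 1 called higher in replicate 1. Their part in these ratios was not tested.

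The 28 partner genes outside the symbol rule were read for context. None was called in either direction, where 5.38% of all genes tested were called higher in replicate 1 and 8.17% higher in replicate 2. Without the minimum ratio, 8 of the 28 passed towards replicate 1, where 11.7% of all genes did, and 4 towards replicate 2, where 14.1% did. Among genes with at least 1000 summed counts those shares were 20.7% and 24%. Among subunits and assembly factors, the highest were Zfand5, a proteasome-binding protein (131.4 and 118.0 TPM), Pomp, and Txnl1, a cap-bound thioredoxin (56.4 and 46.4 TPM). The cap subunit Adrm1, another ubiquitin receptor, had 47.3 and 42.6 TPM. Among shuttles and ligases, the shuttle gene Rad23b had 52.6 and 49.3 TPM, and the ligase Ube3a 43.1 and 41.8 TPM. Nfe2l1 had 154.9 and 173.4 TPM, a log2 ratio of -0.19 that passed the adjusted p but not the minimum ratio. The unfoldase gene Vcp had 106.5 and 92.1 TPM and its cofactor Nploc4 had 37.2 and 32.0 TPM. The polyubiquitin gene Ubb had 387.8 and 323.6 TPM, a log2 ratio of 0.22, while Rps27a, which encodes ubiquitin fused to a ribosomal protein, had a log2 ratio of -0.13. Paaf1 was not analysed here.

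Both kinds of table placed most members alike once TPM was rescaled over nuclear protein-coding genes. The log2 ratio of the first over the second tables had a median of 0.11 over 48 members, with quartiles of -0.09 and 0.23, and 45 of 48 lay within 1.5-fold. Psma2 was 1.80-fold higher in the first tables, at 47.8 and 50.7 rescaled TPM in the first tables and 26.3 and 28.5 in the second. Psme2b was 1.73-fold higher in the first tables, from few reads. Psmc6, an ATPase, was lower in the first tables, at 99.6 and 101.7 rescaled TPM, against 159.6 and 151.9 in the second, a log2 ratio of -0.63. With Psma2 lower and Psma3 1.14-fold higher in the second tables, the constitutive core spanned 12.1-fold there.

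**Figure D4:**
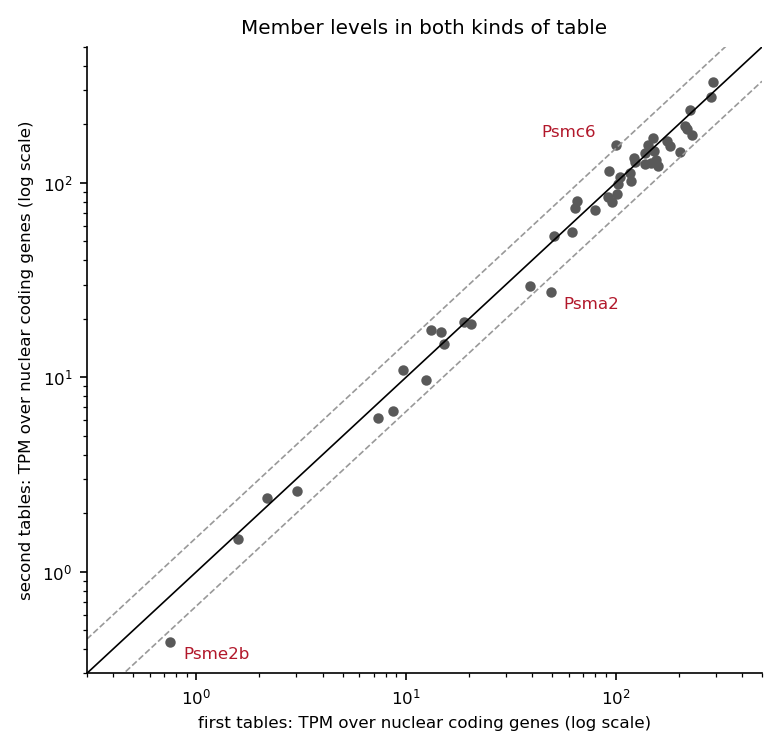
Mean rescaled TPM of 48 members in the first tables (horizontal) and the second tables (vertical), on log axes with dashed lines at 1.5-fold. Psmc6 lies above the band and Psma2 and Psme2b below it, while the other 45 members lie within it.

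The transcripts behind these levels were less certain than the gene totals. The 48 members with reads in the first tables have 269 annotated transcripts, 107 of them protein coding. In the first tables, 38 members had a single transcript at 50% or more of the TPM in both libraries, and 26 at 75% or more. The leading transcript was the same in all 4 tables for 35 members. Psme4 (94.2% and 94.3% in Psme4-201), Psmb7 (99.6% and 99.8% in Psmb7-201) and Psmc2 (99.5% and 99.7% in Psmc2-201) were nearly single-transcript genes. In Psmb1 the first tables gave 83.8% and 74.5% to Psmb1-201, and the second gave 96.7% and 97.2% to Psmb1-204. Both are protein coding. In Psmd8 the first gave 96.7% and 96.5% to Psmd8-202, and the second 55.9% and 53.9% to Psmd8-201, a transcript of 1540 bases that contains every 31-base word of the 1391-base Psmd8-202. These swaps moved RNA between coding transcripts and left the gene total in place.

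In other members the kinds of table differed in how much RNA was coding, with or without a change of lead. Psmd2 and Psmc4 kept the same lead in all 4 tables. Coding transcripts held 98.4% and 99.0% of Psmd2 TPM in the first tables, against 54.1% and 59.9% in the second. For Psmc4 the shares were 94.3% and 97.3% in the first tables and 52.5% and 52.8% in the second. Psma3, the highest member, had 66.3% and 69.2% of its TPM in protein-coding transcripts in the first tables, against 4.75% and 4.34% in the second. The second tables put it in Psma3-201 (45.7% and 43.1%) and Psma3-207 (40.5% and 45.1%), both annotated as targets of nonsense-mediated decay, which destroys RNA with a premature stop. A pseudogene, Gm13835, is 100% identical to Psma3 over 685 bases and had 12.3 and 10.9 TPM in the first tables and 0 in the second. Psmc6 had 53.5% and 54.0% coding TPM in the first tables, and 19.9% and 22.1% in the second, where the processed transcript Psmc6-206 led. In Psmd13, a lid gene, the lead did not swap. A decay-annotated transcript of 1096 bases led in all 4 tables, at 42.7% and 43.4% in the first and 53.5% and 55.0% in the second. The coding transcripts of Psmd13 together held 51.6% and 52.9% in the first tables and 41.7% and 41.7% in the second. In the first tables Psmb8 was led by the retained-intron transcript Psmb8-205 in replicate 1 and by coding Psmb8-203 in replicate 2, from a few reads each. In the second tables its leads were Psmb8-201 in replicate 1, at 49.8%, and Psmb8-203 in replicate 2. At least 90% of the TPM was coding in both libraries for 31 of 48 members in the first tables and for 24 in the second.

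**Figure D5:**
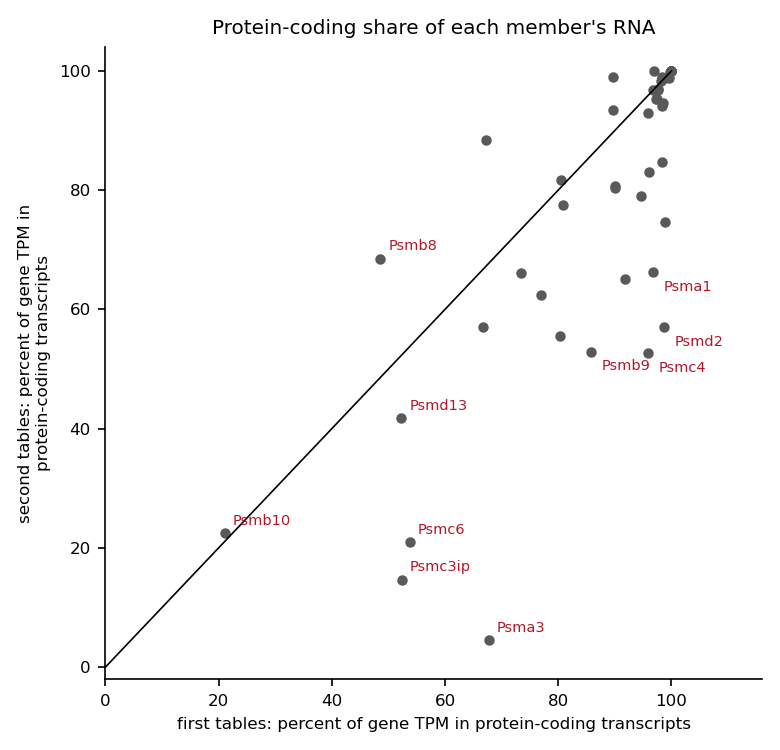
Mean percent of the TPM of each member in protein-coding transcripts, first tables (horizontal) against second tables (vertical), with the line of equality. Most members sit near the upper right, and Psma3 lies lowest at 4.55% in the second tables.

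Leading transcripts also differed between tables or libraries in Psma2, Psmb9, Psmb10, Psmd5, Psmd9, Psmd12, Psme2 and Psmc3ip. Psma2 was led by Psma2-201 (54.0% and 48.2%) and, in replicate 2 of the first tables, Psma2-202. Psmd12 was led by Psmd12-201 in the first tables (69.3% and 76.0%) and by Psmd12-202 in the second. Psme2 had 40.0% and 28.9% in Psme2-201 in the first tables and 0 in the second, where Psme2-208 held 82.9% and 94.0%. Psmd5 and Psmd9 changed leads between their long transcripts and short coding transcripts of 555 and 735 bases. Psmb9 had 66.2% and 71.7% in Psmb9-202 in the first tables, and the second tables led with Psmb9-205 in replicate 1. Psmc3ip had 0.59 and 0.67 TPM from 18 and 25 reads.

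Copies could share reads with 10 members, each with at least 95% identity over at least 50% of the leading coding transcript in another gene. Psme2 and Psme2b, described above, were each other's copy, and Psme2 far exceeded Psme2b. Beside Gm13835, copies at several TPM were AC114990.1 for Psmb3, at 7.06 and 6.95 TPM, Gm3375 for Psmb5, at 5.13 and 5.67 TPM, and Gm8394 for Psma5, at 4.69 and 4.20 TPM. Summed copies came to 21.7% and 22.8% of the TPM of Psma5, to 12.7% and 12.8% of that of Psmb3 and to 10.2% and 9.74% of that of Psma3. How many of these reads came from the members was not tested.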

How the data were processed

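Total RNA was measured in 2 gastrocnemius libraries. Per the labels, reads were assigned to mm10 with ERCC spikes, and per the file headers the authors deposited expected counts, TPM and posterior mean TPM per gene and transcript (first tables) and estimated counts and TPM per transcript (second tables); neither programs nor versions are named in the sources used here. The posterior mean TPM is a model score that the authors deposited beside the TPM. The reference is B6, and any effect of CAST alleles on read assignment was not tested. Gene identity and coordinates came from GENCODE M21. Counts were rounded and compared with an exact two-sided binomial test (scipy 1.17.1) on TMM library sizes from edgeR 4.0.16, with 0.5 added for log2 ratios, after a summed count of at least 20. The test was run on counts simulated with read sampling alone, so that check does not cover other variation between the libraries. Clopper-Pearson 95% intervals and the limit of 3 reads cover counting error only. With 1 group, edgeR's quasi-likelihood test has no contrast. Members and gene lists were chosen with earlier results of these data known. Full values are given for the extremes of each role, catalytic pairs, called members, activators, the inhibitor, chaperones, and members that differed by 1.5-fold or in leading transcript between tables. Partner genes were limited to the 3 highest of each list and any called, apart from some that are not reported here; Adrm1, Rps27a and the limit of 1000 counts were chosen after their values were seen. Copies were found with BLAST+ 2.17.0 (at least 100 aligned bases). Alternatives covered scaling (TMM, DESeq2 1.42.0, totals, ERCC), count filters, kind of table and TPM denominator.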

Additional observations from a re-analysis of the deposited data

How the results depend on the processing

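Of 49 alternative values, 36 were labelled the same and 13 moved. The limit was 1.5 times for counts of members and the SD over the 2 libraries for most other results. For the median log2 ratio of members it was the SD over members, 0.225. A change of sign in a median log2 ratio also counted as moved. With 1 library left out, the summed TPM, inducible share and share in all counts could not pass the SD over the libraries by construction. The inducible share also could not change with the TPM denominator. Those values count among the 36 but say nothing on stability. The summed TPM of members was 3013 in the second tables and 4926 when TPM was rescaled over nuclear protein-coding genes. The rescaled denominator differs by construction. Why the second tables gave a higher sum than the first was not tested. The share in all counts was 0.316% with nuclear protein-coding counts as the total. The inducible share of catalytic TPM was 1.15% over protein-coding transcripts alone in the first tables, an alternative chosen after seeing the data. The span of the constitutive core was 12.1-fold in the second tables, and 6.02 to 6.13-fold with either library alone. With no minimum ratio 12 members passed towards replicate 1, and with a fold of at least 1.5 none passed towards replicate 2, leaving 0 calls; Psme1 was called in the other 7 fits towards replicate 2. The median log2 ratio of members was -0.037 with ERCC scaling and -0.0096 in the second tables; ERCC scaling also moved the median of all genes to -0.053. The cause of these shifts was not tested. The median log2 ratio of the first over the second tables was -0.57 for TPM as deposited, and 0.076 to 0.10 with either library alone. Results between the libraries cannot be had without either library. No paired analysis was possible because the series has 1 group. Depth limits what can be said of the inducible genes Psmb8 and Psmb9: Psmb9 had 13 and 22 reads and Psmb8 31 and 48, so their intervals include both equality and large ratios.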
